A study of Gallus gallus with 24 samples.

Results

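The comparison of hindgut with midgut mesoderm covered 12679 genes of the 17136 Ensembl gene IDs in the count table. They were chosen by level alone: a gene entered when it reached at least 1 CPM, a count scaled to the library total, in at least 4 of the 8 hindgut and midgut libraries that carried the control construct. Of the 4457 genes left out, 1223 had 0 counts in these libraries. The 20 genes just inside that limit had between 1.01 and 1.02 CPM in the library with their fourth-highest level, and the 20 just outside had between 0.959 and 0.985 CPM.

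The libraries were made from messenger RNA of chick embryo intestinal mesoderm after the endoderm had been removed by hand. The 4 hindgut and the 4 midgut libraries shared the same treatment, RCAS-mGFP, an avian retroviral vector with a GFP reporter, electroporated in ovo at stage HH17 into splanchnic lateral plate mesoderm, and eggs were held at 38 °C. The labels' protocols place the electroporation at midgut level also for the hindgut samples, and whether the vector was present in the hindgut could not be read from these counts. The same values stand under headers of embryonic day 12 and of day 14, so the age is not known. A further 4 libraries from midgut with RCAS-Hoxd13 were not used. Nothing in the labels ties replicates to separate embryos. The p-values therefore speak to the spread among these 8 libraries only. In the fit paired by replicate number, that is the spread left after the number is removed. Such spread may be technical. A gene with no counts in a whole region leaves no such spread, and its p-value rests on spread borrowed from other genes.

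The midgut forms the small intestine and the hindgut the large intestine of the chick. Their mesoderm gives rise to the connective tissue and smooth muscle around the gut lining, and regional differences in it are known to depend on Hox genes, transcription factor genes used in a set order along the head-to-tail axis. The mesoderm signals to the overlying epithelium and shapes its folds and villi mechanically. The files give genes by Ensembl ID only and do not pair the IDs with symbols, so no gene below carries a name or role. For the same reason the labelled tissue could not be checked against marker genes, and Hoxd13 itself could not be looked up.

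Library totals ran from 9384064 to 10745459 counts in hindgut and from 8389592 to 10880695 in midgut. Between 14565 and 14832 genes had a count in hindgut libraries, against 14659 to 14818 in midgut libraries. An exact two-sided sign-flip test over the 4 pairs gave p = 0.375 for totals and p = 1 for genes with a count, but 4 pairs cannot give a p below 0.125, so it could not have called a difference. Over the 4 library measures compared in this way, the Benjamini-Hochberg adjusted values of these exact tests were 0.75 and 1. On the first principal component of log2(CPM + 1), which held 42.4% of the variance, the hindgut libraries 1 to 4 lay at -4.35, -23.8, -56.0 and -1.43, against 38.9, 9.80, 9.96 and 27.0 for midgut 1 to 4. The regions did not overlap on this axis, and hindgut 3 and midgut 1 were its ends. On the second component, with 25.4%, hindgut 1 to 4 lay at 28.8, -2.46, -10.3 and 35.7 and midgut 1 to 4 at 1.95, -31.3, -22.3 and -0.153, so numbers 1 and 4 were above numbers 2 and 3 within each region.

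Hindgut 2 and hindgut 3 stood apart from the other hindguts in sets of genes described next, which were chosen after their values had been seen. A gene was counted when 1 library lay far from the other 3 of its region (Dixon's test, log2(CPM + 1), range of at least 1 log2 unit). Hindgut 2 stood above the others in 63 genes (0.497% of those tested) and below in 0. Hindgut 3 stood above in 2 and below in 25 (0.213% together). The other 6 libraries each stood apart in 4 to 9 genes (0.0315% to 0.0710%).

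The 63 genes high in hindgut 2 were mostly of low level, with 51 in the lowest quartile of mean CPM. Their median level was 0.761, 9.06, 0.612 and 0.549 CPM in hindgut 1 to 4, against 6.40, 4.92, 2.38 and 2.77 CPM in midgut 1 to 4. Hindgut 2 was above every midgut library in 50 of them, as in 25.2% of all tested genes, and the other 3 hindguts were below every midgut library in 53, as in 7.38% of all tested genes. In 32 of the 63 all of hindgut 1, 3 and 4 were under 1 CPM, so that these genes entered through hindgut 2 and the midgut, and a midgut level above those 3 hindguts was largely set by the rule for entry. Midgut levels bore on entry but not on the choice by Dixon's test among the hindguts. Within the midgut, libraries 1 and 2 were both above libraries 3 and 4 in 55 of the 63, against 15.5% of all tested genes. This split was chosen with the values known. In the paired edgeR fit given further on 0 of the 63 were called, with 6 at an unadjusted p under 0.05, against 0 by limma voom and 18 by DESeq2, all lower in hindgut. Among all 12679 tested genes edgeR called 1499, with 3369 at an unadjusted p under 0.05. Over the same genes limma voom called 1544, and DESeq2 called 545 lower in hindgut. Without replicate 2, whose hindgut library chose the set, the edgeR test called 39 of the 63 lower in hindgut. Among all tested genes that fit called 997 (7.86%), of which 358 were lower. The call of the 39 is a description of the choice and supports nothing. Markers of other cell types could not be matched to IDs, so the part of the cell mix in this set was not tested. In libraries from whole tissue, fewer cells of a type and less RNA per cell cannot be told apart.

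A larger and more abundant set was low in hindgut 3. It was chosen by the ratio in pair 3 and not by Dixon's test among the hindguts. In pair 3, 230 of the 12679 tested genes were at least 4-fold lower in hindgut than in midgut, against 87, 25 and 28 in pairs 1, 2 and 4. Of the 230, 146 were in the highest quartile of mean CPM. The pairs were more alike in the other direction, with 67, 73, 63 and 65 genes at least 4-fold higher in hindgut in pairs 1 to 4. The 230 genes together took 7.62%, 4.18%, 1.30% and 10.4% of all counts in hindgut 1 to 4, against 13.5%, 5.96%, 7.46% and 9.82% in midgut 1 to 4. Hindgut 3 was the lowest of the 8 libraries in 206 of them, as it was in 22.0% of all tested genes. A low level in hindgut 3 was part of the choice, so this count and the hindgut 3 share of counts describe the choice. The median log2 ratio of hindgut over midgut was -2.47 in pair 3, which chose the set, and -1.02, -0.41 and 0.09 in pairs 1, 2 and 4. In 142 of the 230 genes the ratio was positive in pair 4. In the paired fit 26 (11.3%) were called, all lower in hindgut, against 4.12% called lower among all tested genes. By DESeq2 41 of the 230 were called, all lower, against 545 called lower among all 12679 tested genes. Pair 3, which chose the set, is part of both fits, so these counts describe the choice in part. Within the midgut, libraries 1 and 4 were both above libraries 2 and 3 in 171 of the 230, against 14.5% of all tested genes. Within the hindgut, libraries 1 and 4 were both above libraries 2 and 3 in 196, in part because hindgut 3 was low by the choice. This split was chosen with the values known, and genes that vary together are not replicates. The TMM scaling factor, which adjusts library totals for such shifts in make-up, was highest in hindgut 3 at 1.09 and lowest in midgut 1 at 0.923, the libraries with the smallest and the largest share of counts in these genes. With library totals in place of TMM, 1642 genes were called between regions, against 1499 with TMM.

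**Figure D1:**
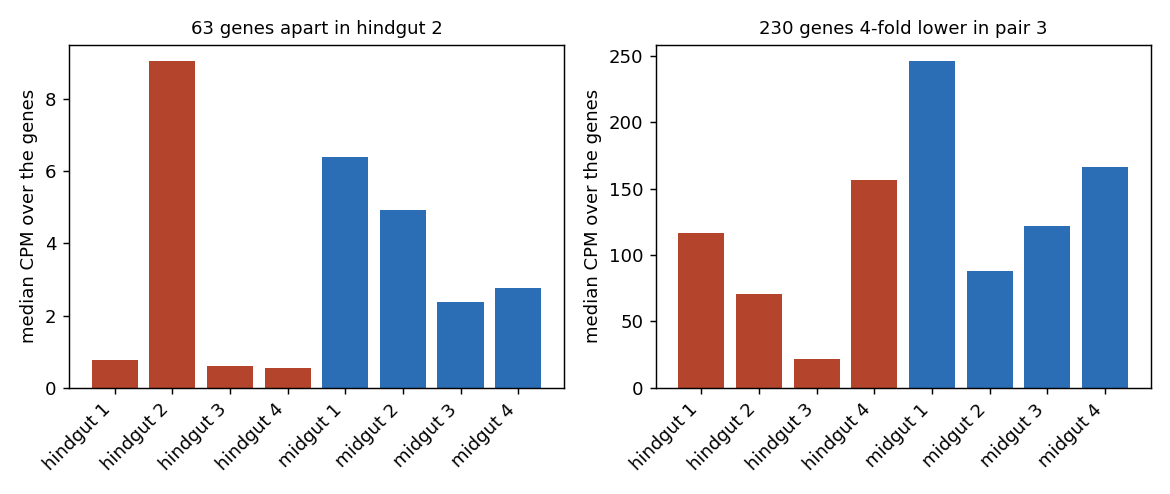
Median CPM in each library of 63 genes in which hindgut 2 stood above the other hindguts (left) and of 230 genes at least 4-fold lower in hindgut than in midgut in pair 3 (right). Hindgut bars are red and midgut bars blue; the 63 genes reach 9.06 CPM in hindgut 2 and under 1 CPM in the other hindguts, and the 230 genes are at 21.3 CPM in hindgut 3 and at 70.5 CPM or more in every other library.

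Libraries with the same replicate number resembled each other across regions. The deviations of each library from its region's mean correlated across genes, which are not independent replicates, at 0.534, 0.425, 0.528 and 0.539 for numbers 1 to 4. Each of the 8 libraries matched its own number best, and different numbers correlated between -0.538 and 0.334. Deviations from a mean sum to 0, which pulls the correlation of different numbers below 0. Leaving out the 63 and the 230 genes gave 0.545, 0.450, 0.564 and 0.568, again with the best match to the own number in all 8 libraries. Pairing by number was part of how the comparison was defined, and the labels do not state it. These correlations come from the same 8 libraries and are not an independent check of it.

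**Figure D2:**
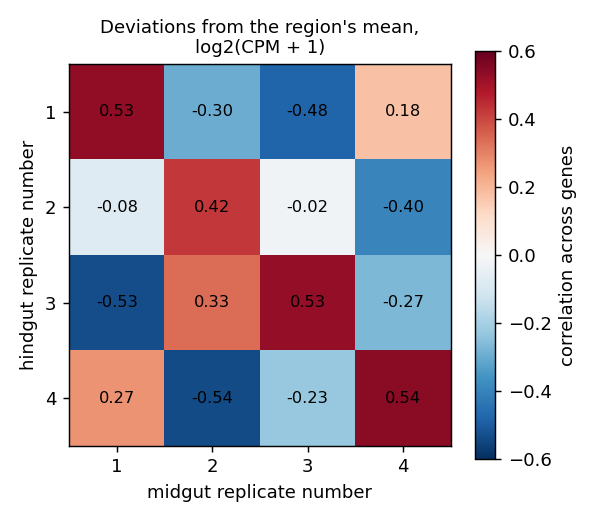
Correlation, across the tested genes, of the deviations of hindgut libraries (rows) and midgut libraries (columns) from their region's mean on the log2(CPM + 1) scale. The diagonal, where the replicate numbers agree, runs from 0.425 to 0.539, and every other cell is at 0.334 or lower.

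Variation was split per gene into region, replicate number and the remainder, and summed over the 12679 genes. Region held 34.9% of the variation of log2(CPM + 1), replicate number 48.1% and the remainder 17.0%, where the degrees of freedom alone would give 14.3%, 42.9% and 42.9%. In the most abundant quartile of genes region held 30.0% and replicate number 52.2%. With the replicate number as a block, log2 fold changes had a median standard error of 0.113, against 0.149 without it, and the coefficient of variation between libraries, from the common dispersion, was 15.8% against 22.9%.

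The question was which genes set hindgut mesoderm apart from midgut mesoderm within the same pair. With the pairs as a block, 976 genes were higher in hindgut (7.7% of those tested) and 523 were lower (4.12%), 1499 in all or 11.8% (edgeR quasi-likelihood test, Benjamini-Hochberg adjusted p under 0.05). Most differences were modest, with medians of 1.64-fold for higher and 1.51-fold for lower genes, and 632 of the 1499 calls lay under 1.5-fold. A difference of 8-fold or more was found in 60 called genes, 39 higher and 21 lower in hindgut. Among all tested genes 64 had a difference of that size, 40 positive and 24 negative. All 1499 had the same sign in all 4 pairs, as did 36.8% of all tested genes. No overlap between hindgut and midgut libraries was seen in 1163 of them, as in 14.5% of all tested genes. The test itself favours genes whose pairs agree, so both counts describe the calls and are no separate support. Without the block the same 8 libraries gave 632 higher and 283 lower genes, 915 in all (7.22%), of which 906 were among the 1499. Without replicate 1, 2, 3 and 4 the paired fit called 957 (7.55%), 997 (7.86%), 1133 (8.94%) and 863 (6.81%) genes.

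A stricter test asked whether a difference was larger than 1.5-fold (edgeR's glmTreat, adjusted p under 0.05). It was passed by 355 genes (2.8%), 246 higher in hindgut (1.94%) and 109 lower (0.86%). Without replicate 1, 2, 3 and 4 the count was 267, 311, 316 and 266. The number of genes lower in hindgut by this test was 81, 122, 97 and 88 without replicate 1, 2, 3 and 4.

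**Figure D3:**
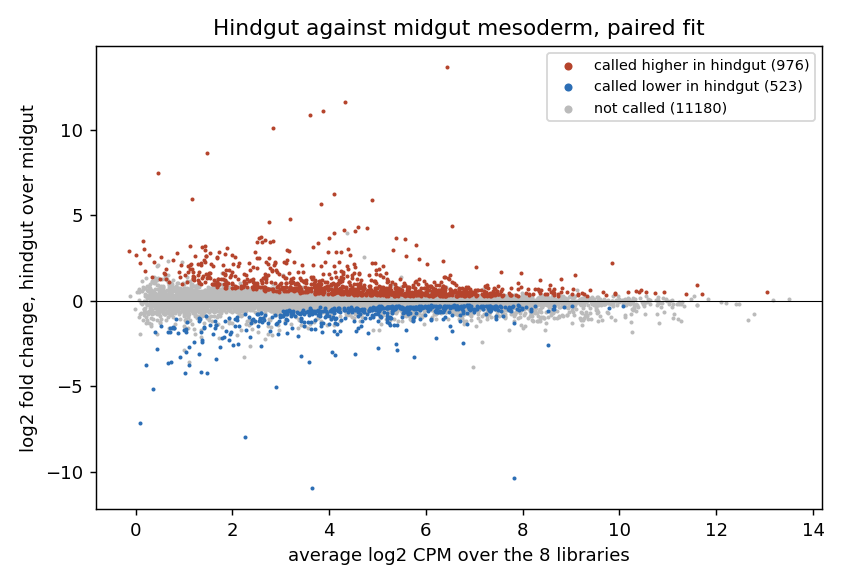
Log2 fold change of hindgut over midgut against average log2 CPM for the 12679 tested genes, 1 point a gene. The 976 genes called higher are red, the 523 called lower blue and the rest grey; called genes are found at all levels, and the largest difference on each side lies above an average log2 CPM of 3.

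Higher genes made up 65.1% of the calls (95% Clopper-Pearson interval 62.6% to 67.5%, which treats genes as independent) and 69.3% of the calls beyond 1.5-fold. Genes of the same 8 libraries are not independent, so the interval does not bound the share. The share was 60.8% with DESeq2 and 72.6% with library totals only, both outside the interval, and 64.8% with limma voom, inside it. Among all tested genes at 4-fold to 8-fold, 76 were positive and 30 negative, whereas from 2-fold to 4-fold there were 238 on each side, of which 202 positive and 106 negative ones were called. The genes called higher took 9.18%, 10.4%, 12.7% and 9.90% of all counts in hindgut 1 to 4, against 5.77%, 6.79%, 7.40% and 6.60% in midgut 1 to 4. The genes called lower took 2.61%, 2.65%, 2.74% and 2.55% of counts in hindgut 1 to 4, against 3.52%, 3.96%, 3.85% and 3.78% in midgut 1 to 4. These shares describe genes picked for the difference and were not tested. With library totals as the only scaling, 1192 genes were higher and 450 lower, so the balance between the directions depends in part on the scaling.

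The share of genes called hardly varied with level, while the size of the called differences did. From the least to the most abundant quartile of genes, 11.8%, 12.2%, 10.9% and 12.4% were called. The median called difference was 2.48-fold, 1.65-fold, 1.40-fold and 1.37-fold in that order, and log2 fold changes had median standard errors of 0.236, 0.120, 0.0915 and 0.0831. Genes in the lowest quartile had a median of 38.1 counts per library and those in the highest 1212, so small differences could be detected mainly in abundant genes. Differences beyond 1.5-fold were called in 148, 110, 58 and 39 genes from the lowest to the highest quartile.

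Each pair was also examined in genes called without it, on a ratio that the fit of the other 3 pairs did not use. The 1 CPM rule for entry and the scaling behind the ratio did use all 8 libraries. For genes under 1 CPM in every library of 1 region, that rule largely set the sign in the left-out pair too. Of the genes called on 3 pairs, 97.9%, 93.6%, 97.8% and 98.6% had the same sign in the left-out pair 1, 2, 3 and 4. Over all tested genes the left-out ratio was positive in 49.5% to 51.7%. Genes called higher in hindgut kept their sign in 626 of 636, 635 of 639, 748 of 769 and 577 of 581 cases for pairs 1 to 4. Genes called lower kept it in 311 of 321, 298 of 358, 360 of 364 and 274 of 282. Pair 2 held the exception, with 60 genes that were lower on the other pairs and positive in pair 2. Of these 60, 32 belonged to the 63 genes high in hindgut 2, an overlap that follows in part from how the 63 were chosen.

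The size of the difference in the left-out pair was mostly somewhat smaller than in the fit. For genes called higher the median log2 ratio in the left-out pair, on the log2(CPM + 1) scale, was 0.73, 0.79, 0.71 and 0.82 for pairs 1 to 4, against fitted medians of 0.90, 0.85, 0.79 and 0.96. For genes called lower it was -0.65, -0.59, -0.80 and -0.74, against fitted medians of -0.78, -1.06, -0.76 and -0.95. The offset of 1 CPM understates the change of low genes, and genes chosen on 3 pairs favour a larger fitted value.

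**Figure D4:**
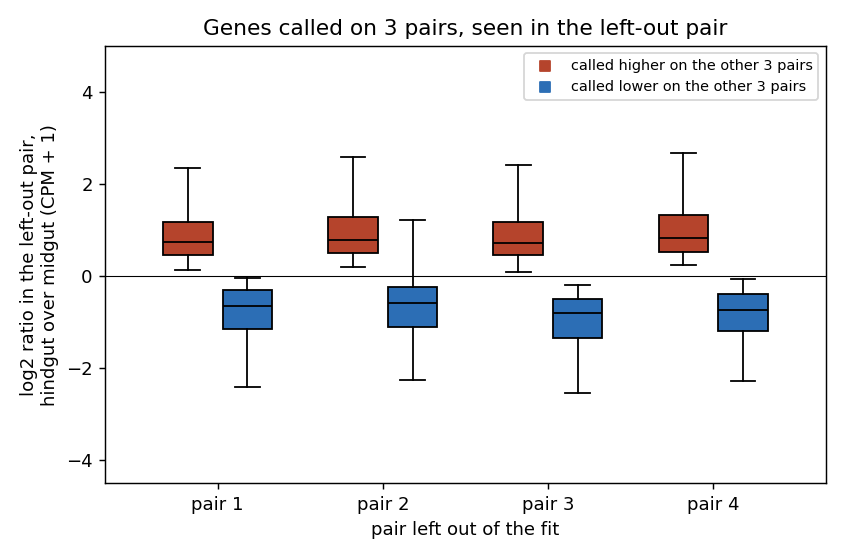
Log2 ratio of hindgut over midgut in a left-out pair, on the log2(CPM + 1) scale, for genes called higher (red) or lower (blue) on the other 3 pairs. Boxes show the quartiles with the median as a line, and whiskers the 5th and 95th percentiles; the medians lie between 0.71 and 0.82 for higher genes and between -0.80 and -0.59 for lower genes, and the lower genes of pair 2 reach above 0.

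In a smaller number of genes a wide gap separated the regions. The lowest hindgut library was at least 2-fold above the highest midgut library, on CPM + 1, in 93 genes (0.733%), and the lowest midgut library was at least 2-fold above the highest hindgut library in 41 (0.323%). At a gap of 8-fold there were 13 and 2 genes. Among the tested genes, 7 had 0 counts in all 4 midgut libraries and 2 had 0 counts in all 4 hindgut libraries. Such genes entered only with at least 1 CPM in all 4 libraries of the other region, so that they had to differ. The counts are estimates by transcript quantification, and whether these IDs share reads with near-identical copies was not checked, since their sequences could not be looked up.

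The IDs given individually are those with the largest smallest-pair difference in each direction among 1192 called genes with an average log2 CPM of at least 3. All 4 were under 1 CPM in every library of 1 region, so they entered through the other region alone and had to differ. They were also ranked by that difference, so their p-values describe the choice and are not independent support. For an ID at 0 throughout 1 region, the block fits each library of the other region exactly. Its p-value then does not measure its own spread between libraries. ENSGALG00000026631 had 44.3, 39.7, 36.2 and 37.7 CPM in hindgut 1 to 4, against 0 CPM in all 4 midgut libraries. Its hindgut level was nearly even over the libraries, at 39.5 ± 3.53 CPM (SD, n = 4), and hindgut 2 and 3 did not stand out. A floor of 3 counts per midgut library corresponds to a mean of 0.317 CPM, so the gene was at least 124-fold higher in hindgut (edgeR adjusted p = 4.97e-05).

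ENSGALG00000040021 had 224, 116, 34.5 and 320 CPM in hindgut 1 to 4, against 0 CPM in all 4 midgut libraries. Every hindgut library was above every midgut library, but the hindguts differed among themselves, with numbers 1 and 4 high, number 2 lower and number 3 lowest. Its mean was 174 ± 125 CPM in hindgut (SD, n = 4), which is at least 547-fold above the floor of 3 counts per midgut library (edgeR adjusted p = 1.12e-05). With the block the log2 fold change of this gene had a standard error of 0.225. Without it the standard error was 1.92 and the edgeR adjusted p 0.0338. Because midgut was at 0 throughout, its test between replicate numbers (edgeR adjusted p = 0.00572) rests on the hindgut libraries alone, 1 for each number.

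ENSGALG00000037262 had 0.571, 0, 0 and 0.879 CPM in hindgut 1 to 4, from 6, 0, 0 and 8 counts, against 687, 296, 405 and 420 CPM in midgut 1 to 4. The gene was abundant in every midgut library and nearly undetected in hindgut. Its means were 0.362 ± 0.437 CPM in hindgut and 452 ± 166 CPM in midgut (SD, n = 4 each), which gave a fitted log2 ratio of -10.35 with a standard error of 0.65 (edgeR adjusted p = 0.00427). ENSGALG00000039051 had 0 CPM in all 4 hindgut libraries, against 24.2, 23.4, 23.3 and 28.8 CPM in midgut 1 to 4. Its midgut mean was 24.9 ± 2.62 CPM (SD, n = 4), and it was at least 84.4-fold lower in hindgut, taking the floor of 3 counts per hindgut library as a mean of 0.296 CPM (edgeR adjusted p = 8.90e-05). Neither gene showed the rise in hindgut 2 that marked the 63 genes, but the ranking by smallest pair difference disfavours genes with such a rise.

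**Figure D5:**
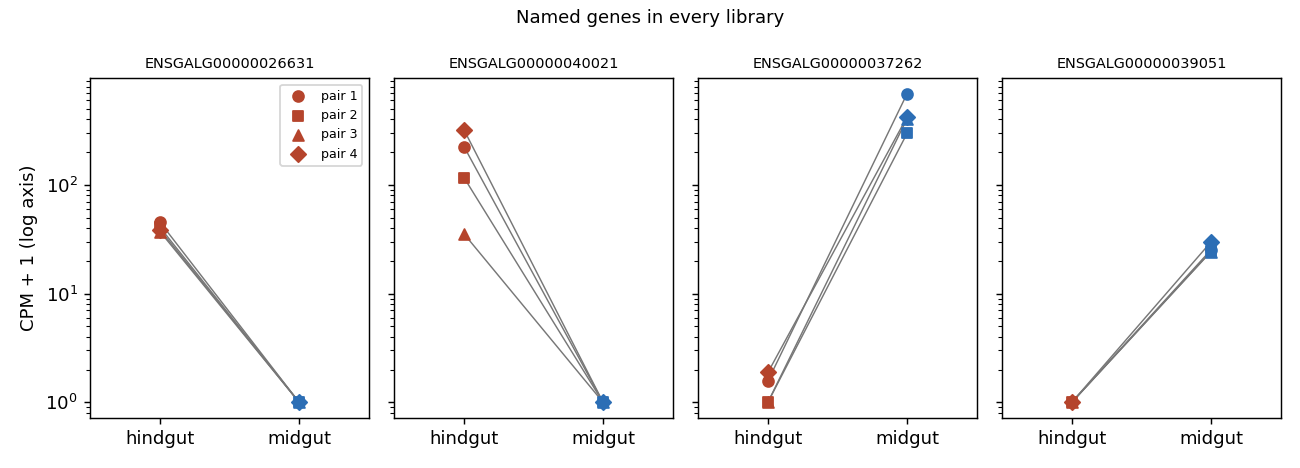
CPM + 1 on a log axis in hindgut (red) and midgut (blue) for the 4 IDs given individually, with lines joining libraries of the same replicate number. ENSGALG00000026631 and ENSGALG00000040021 are at 0 CPM in every midgut library, ENSGALG00000039051 is at 0 CPM in every hindgut library, and ENSGALG00000040021 spreads from 34.5 to 320 CPM in hindgut.

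Differences between the replicate numbers, taken over hindgut and midgut together, were tested in the same fit. A call does not require the difference to be present in both regions. They were called in 342 genes (2.7%, edgeR adjusted p under 0.05), and 66 of these (0.521% of all tested) were also called between regions. That is 19.3% of the genes called between numbers, against 11.6% of the others called between regions. Both tests share each gene's estimate of spread, which favours calls by both, so the overlap does not show a link. The median range over the 4 numbers, averaged over regions, was 1.08 log2 units in the 342 genes and 0.353 in all tested genes. The same number was the highest in hindgut and in midgut in 230 of the 342 (67.3%), against 39.0% of all tested genes, though the test itself favours genes whose numbers agree between regions. Of the 230 genes low in hindgut 3, edgeR called 0 between numbers, with 7 at an unadjusted p under 0.05, against 0 by limma voom and 8 by DESeq2. Among all 12679 tested genes 2555 had an unadjusted edgeR p under 0.05 between numbers, while limma voom called 346 and DESeq2 656. The 230 genes low in hindgut 3 were chosen for their ratio between regions in pair 3. The fit counts a ratio particular to 1 pair as remainder, which makes a call between numbers harder. The 0 therefore does not show that they and the 342 are distinct groups. Numbers 1, 2, 3 and 4 were farthest from the others in 96, 75, 80 and 91 of the 342 genes, and in 25.3%, 19.1%, 31.2% and 24.4% of all tested genes. The count of 342 depended on single pairs: it was 138, 184, 542 and 168 without replicate 1, 2, 3 and 4. Whether the numbers mark embryos, clutches or days is not given in the labels, so these cannot be told apart.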

How the data were processed

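The authors deposited estimated counts for each Ensembl gene as whole numbers, without normalization. The submitters' processing notes name Salmon, DESeq2 and the build GRCg6a, with no version and no role; annotation release and filters: not given in the sources used here. Since the 2 deposited tables differed in 0 of 205632 values, 1 was used, and 16 columns of the 2 tables were not. Of 17136 IDs, 0 matched the reference gene table, so the 17 gene lists and the cell type markers had 0 members and were not tested.

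Counts were rounded, which changed none, and fitted in R 4.3.3 with edgeR 4.0.16 (TMM scaling, robust quasi-likelihood F test, replicate number as a block, 3 residual degrees of freedom). CPM values use TMM-scaled totals, except in the 1 CPM filter. Standard errors come from the F statistic. The test was checked on simulated counts, where unchanged genes made up a larger share of the calls than the nominal rate. The calls here may therefore hold more false ones than that rate, and those near the threshold are less sure. Fewer genes were changed in the simulation than were called here, so its share does not carry over. Floors of 3 counts cover counting error only. Libraries of 1 region differed by 15.9 to 110 times the sampling variance, so none was counted as a repeat. Members, lists and tests were chosen with earlier results of these data known. Named IDs were called genes of the same sign in all pairs and average log2 CPM of at least 3, ranked by their smallest absolute pair ratio, 2 per direction. Alternatives were scaling, filters, DESeq2 1.42.0, limma 3.58.1 voom, no block, a threshold of 0.01 and leaving out each pair. In the paired fit, leaving out a single library equals leaving out its pair.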

Additional observations from a re-analysis of the deposited data

Results flagged for a closer look

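A library far from the other 3 of its region was found in 2 of 19 sets of values examined, where chance gives about 1 in 20. In midgut 1, 14818 genes had at least 1 count, and the other midgut libraries had 14659 to 14670 such genes. ENSGALG00000039051 stood at 28.8 CPM in midgut 4, against 23.3 to 24.2 CPM in the other midgut libraries.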

How the results depend on the processing

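The paired analysis used the replicate number as a block. With no replicate block the calls between regions numbered 915 against 1499, with 69.1% higher in hindgut against 65.1%. At an adjusted p threshold of 0.01 there were 732 calls between regions, 70.9% of them higher, 233 beyond 1.5-fold and 125 between replicate numbers. The share higher was 72.6% with library totals only and 60.8% with DESeq2. The 342 genes called between replicate numbers became 628 with library totals only, 656 with DESeq2 and 221 without robust dispersion. Leaving out 1 pair gave 863 to 1133 calls between regions, 64.1% to 67.9% of them higher, 266 to 316 beyond 1.5-fold and 138 to 542 between replicate numbers. The cause of these shifts was not tested. Under the remaining alternatives (RLE scaling, no filter, filterByExpr, a minimum of 5 CPM, voom, and DESeq2 and library totals for the number of calls) the calls between regions stayed between 1330 and 1642. The 4 IDs kept direction and call in all 13 alternatives each, with the highest adjusted p at 0.0455 for ENSGALG00000037262 without replicate 1. Low depth limits the lowest quartile of genes most, where the median standard error was 0.236.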
